A study of Mus musculus with 6 samples.

Results

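The cerebellum of wild type mice at postnatal day 11 was described gene by gene, from the highest to the lowest array signal. The study hybridised total RNA from whole cerebella of mice lacking the cell adhesion molecule L1 and of their wild type siblings to Affymetrix murine U74Av2 arrays, which read each transcript with one or more probe sets. Of its 6 arrays, the 3 titled as wild type cerebellum were used here, 1 from each of 3 mice per the design text. The other 3, from L1 knockouts, were not used. All 3 wild type mice were of strain 129S2/SvPasCrlf and labelled as wild type at L1, no treatment is named, and their sex is not given. Each is called wild type 1, 2 or 3 after its label. Of 12488 probe sets, 66 hybridisation and labelling controls were dropped. Of the other 12422, the platform annotation gave 1 gene symbol to 10833, several to 396 and none to 1193. The probe sets with 1 symbol covered 8251 genes, and each gene was represented by its probe set with the highest mean over the 3 arrays.

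At this age the cerebellar cortex is still being built. Granule cell progenitors divide in the external granular layer under the influence of Sonic hedgehog, made by Purkinje cells, and their daughters migrate inward along Bergmann glia to become granule neurons, which extend parallel fibers onto growing Purkinje dendrites. Inhibitory interneurons settle in the molecular layer over the same period, and oligodendrocytes begin to wrap the axons of the white matter. L1 is an immunoglobulin family adhesion molecule on growing axons.

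The values were on the log2 scale and ran from a mean of 5.31 to a mean of 15.43, with a median of 9.32 and quartiles at 8.08 and 10.37. A gene's position is given as its percentile, the share of the other genes with a lower mean, with the SD of the percentiles obtained by ranking each array alone. The signal of a probe set depends on how well its probes bind as well as on how much transcript is there, so these positions order signals and not amounts of RNA, and no test was made between genes. Precision is limited by the number of arrays. The array medians over all probe sets were 8.94, 8.92 and 8.93, and any pair of arrays had a Pearson correlation of 0.997 across probe sets, which are not independent replicates.

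**Figure D1:**
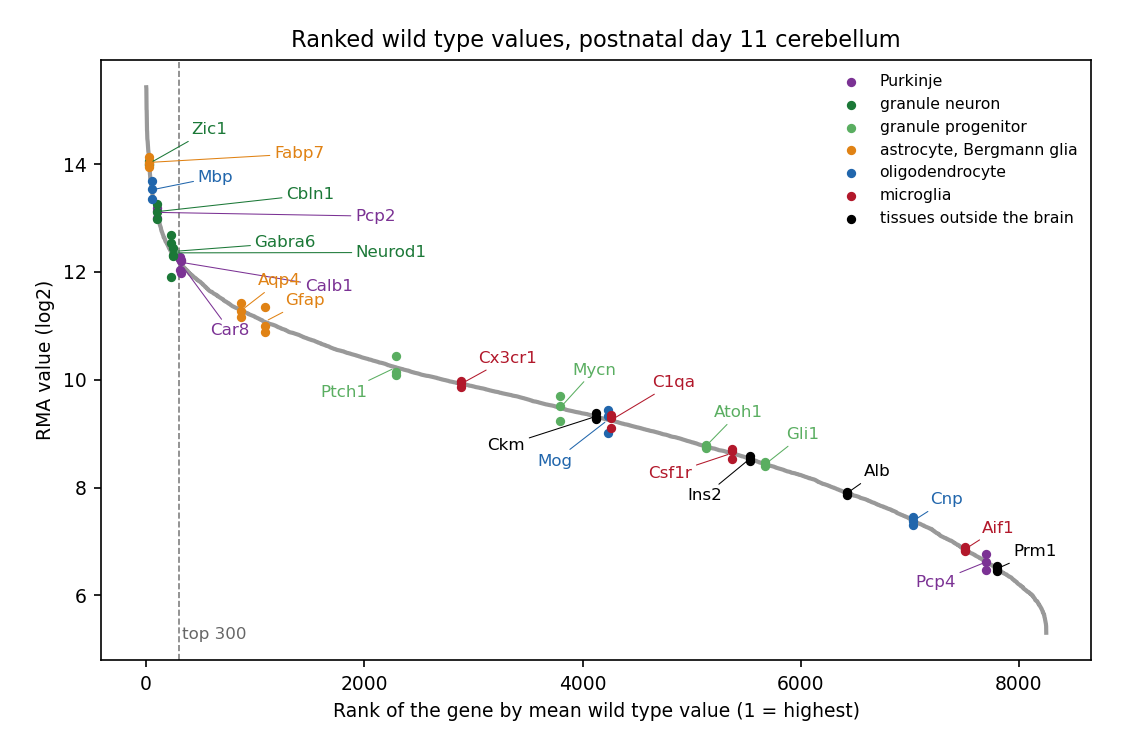
Mean log2 signal of the 3 wild type arrays (grey line, y axis) for the 8251 genes in order of rank (x axis). Coloured points are the 3 single arrays for named markers, by cell type, and the dashed line marks rank 300. The plotted markers of granule neurons and Purkinje cells gather at the left with values over 11, Pcp4 excepted. Of the plotted progenitor markers, Atoh1 and Gli1 lie right of the middle among the genes of other organs, and Ptch1 and Mycn left of it. Over the whole Purkinje list, 8 of 22 genes were in the top 10%.

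The genes at the head of the order built the cytoskeleton and the ribosome. Tuba1a, the alpha tubulin of growing neurons, came first with 15.42, 15.42 and 15.44 in wild type 1, 2 and 3. Rpl41, a protein of the large ribosomal subunit, read 15.36, 15.46 and 15.37. Eef1a1, which brings aminoacyl-tRNA to the ribosome, read 15.03, 15.02 and 14.99. In each of these genes the 3 arrays lay within a narrow band beside the distance to the median gene. The alpha tubulin genes are near copies of each other, so the signal of Tuba1c, 14.99 on wild type 2 and 3 with a mean of 14.99, can include Tuba1a transcripts.

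Neuronal growth proteins and cell type markers also reached the first 30 places. Nrep, a neuronal protein linked to regeneration, read 14.69, 14.78 and 14.90, and Basp1, a membrane protein of growth cones, read 14.40, 14.32 and 14.31. Ckb, the brain creatine kinase, read 14.37, 14.54 and 14.52. Pvalb, the calcium buffer of Purkinje cells and molecular layer interneurons, read 14.03, 14.44 and 14.28. Glia were represented by Apoe, the lipid carrier of astrocytes, and by Fabp7, the fatty acid binding protein of radial and Bergmann glia. Apoe read 14.17, 14.22 and 14.23, and Fabp7 read 14.13, 13.94 and 14.02. Zic1, a transcription factor of the granule cell lineage, read 13.99, 13.99 and 14.06. App, the amyloid precursor protein, stood at 13.99, 14.11 and 14.16, and Rac1, a small GTPase that steers actin, at 14.01, 14.04 and 14.02. The other genes of the 30 were Snrpb, Rps28, Rps24, Tpt1, Jund, Plk3, Fth1, Gnas, Hba-a1, Ybx1, Actg1, Tubb5, Rplp0, Rps7, Cox6a1, Tmsb4x and Ptgds.

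Not every name in this group rests on equal ground. Snrpb, a core protein of the spliceosome, read 15.08, 15.03 and 15.06 on one probe set, while its other probe set lay at percentile 0.545 among the 10833 probe sets. Probe sets whose identifier carries a letter such as r, f, s or i were designed under relaxed rules or can match several transcripts. They represented 46.7% of the first 30 genes and 33.7% of the first 300, against 13.4% of all genes. Plk3, a stress-response kinase, read 14.49, 14.37 and 14.50 and was among them. Tuba1a, Rpl41 and Tuba1c were read by such probe sets too.

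Families of basic cell machinery filled a large share of the top 300. Of the 300 genes, 100 (33.3%) belonged to 1 of 11 families recognised by symbol, against 511 of all 8251 genes (6.19%). The mitochondrial respiratory chain and ATP synthase gave the most, 21 of 76 measured members, with a median percentile of 92.7. Cox6a1, a cytochrome c oxidase subunit, read 13.97, 14.16 and 14.08, and Uqcrq, a subunit of complex III, read 13.80, 14.12 and 13.87. Wild type 2 was the highest array for both. Tubulins, actins and their small binding proteins placed 15 of 42 members in the top 300, with a median percentile of 91.6. Glycolysis had the highest median of the families, percentile 94.7, with 6 of 14 members in the top 300. Its leading enzymes were Aldoa at 12.98, 13.16 and 13.16, Pkm at 12.95, 13.12 and 13.05, and Aldoc, the aldolase of astrocytes and of a subset of Purkinje cells, at 12.47, 13.14 and 13.01. All of these glycolytic genes were lowest in wild type 1.

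Other families were spread more widely. Ion pumps, which restore sodium, calcium and proton gradients, had a median percentile of 88.2 and 6 of 22 members in the top 300, led by the vacuolar ATPase subunit Atp6v0e2 at 13.24, 13.29 and 13.19. Proteasome and ubiquitin genes had a median percentile of 81.2, translation factors 68.1, RNA-binding and splicing proteins 69.9, and chaperones 66.8. Calmodulins and G protein subunits had a median percentile of 68.2, with 9 of 34 in the top 300. Among them Gnas, the stimulatory G protein alpha subunit, read 14.43, 14.41 and 14.42. Histones and HMG proteins were the only one of the 11 families whose median lay below that of all genes, at percentile 39.8. Within it Hmgn1, a nucleosome-binding protein, stood at percentile 99.5 with 13.76, 13.71 and 13.63.

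**Figure D2:**
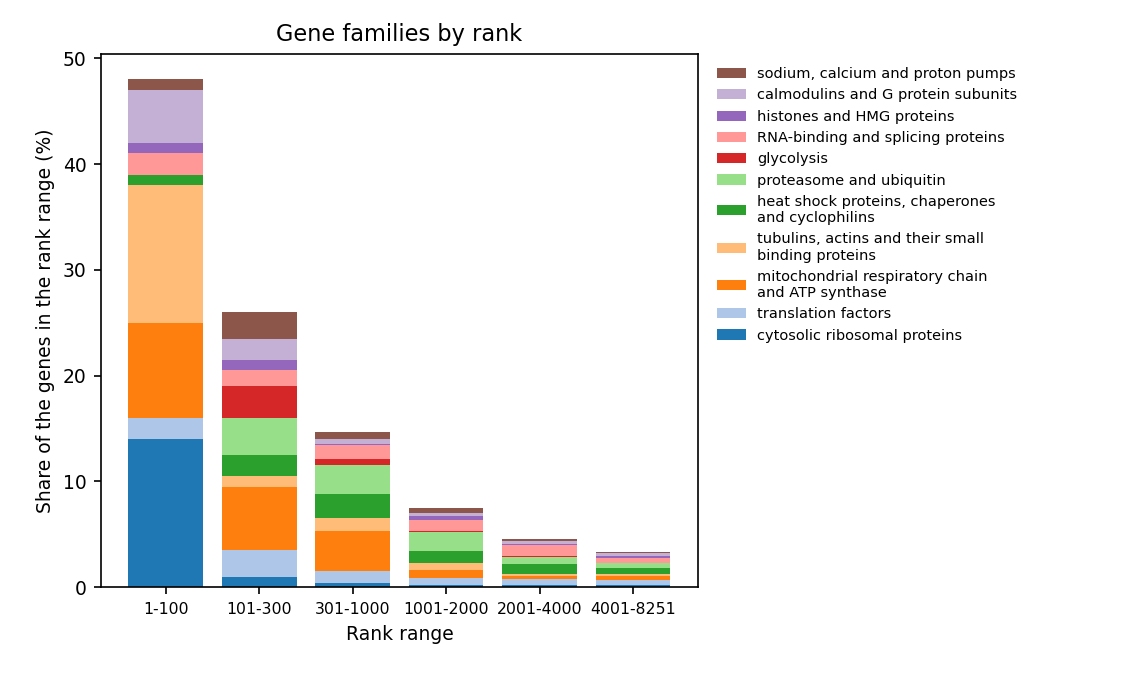
Share of the genes in each rank range (y axis, percent; x axis, rank range with 1 the highest) that belong to each of the 11 families, stacked by colour. The stack falls from 48.0% in the first range to 3.32% in the last, against 6.19% over all genes.

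Cytosolic ribosomal proteins split into a high and a low part. Of 36 measured genes, 16 were in the top 300 and 7 in the lowest 25% of all genes. The 7 were Rpl32, Rpl38, Rps14, Rpl39l, Rps20, Rpl39 and Rps15. All but Rpl39l, a paralog of Rpl39 known from testis, encode regular subunits of the same particle as Rpl41. The median percentile of the 36 was 91.4.

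The starts of the ribosomal protein genes were looked at because 16 of these genes were in the top 300 and the ranking used no sequence. RefSeq promoter sequence on build GRCm38.p6, from 250 bases before to 50 bases after the annotated start, was given for 29 of the 36 (80.6%). The letters CCGGAAG, the core recognised by ETS family factors, were searched on both strands. They occurred in 12 of these 29 (41.4%), in 25.8% of 62 respiratory chain genes, in 18.2% of 242 genes of the top 300 and in 4.96% of 242 of the lowest 300. Over the 17492 protein-coding genes with a sequence, the share was 12.9%, and over all 27025 genes with a sequence it was 9.93%. A gene counted where any of its listed starts held the letters. Several starts were listed for 7 of the 29 ribosomal genes, 53 of the 242 genes of the top 300 and 2761 of the 17492. Only 79.7% of the 8251 ranked genes had a sequence. Among those 6572 genes the share was 17.1%, close to the 18.2% of the top 300. Of the 16 ribosomal genes in the top 300, 14 had a sequence and 7 held the letters. The 7 windows are printed as 30 bases each, on the strand of the gene, because they show the shared letters in their different settings. Capitals mark CCGGAAG or its reverse complement CTTCCGG.
Rpl41: tagtaaggcagCCGGAAGtcgctgtctcga
Rps7: tttcagaagagCTTCCGGtttccacccacc
Rps3a1: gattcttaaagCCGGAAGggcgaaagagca
Rps18: agaaggccgaaCCGGAAGttatagctccgg
Rpl6: ttgcttatagaCCGGAAGccgctgccttag
Rpl19: acttagcgtgaCTTCCGGctacccagagga
Rps10: agccgcgcagcCCGGAAGagacgctgcgcc

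The windows lie at chr10:128549206-128549235 on the minus strand for Rpl41, chr12:28635949-28635978 on the minus strand for Rps7, and chr3:86142659-86142688 on the minus strand for Rps3a1. Those of Rps18 and Rps10 are at chr17:33955804-33955833 and chr17:27635255-27635284, both on the minus strand. Those of Rpl6 and Rpl19 are at chr5:121204502-121204531 and chr11:98026660-98026689, both on the plus strand. The capital letters lie before the annotated start in all of the 7 but Rpl6, where they lie just after it. A match is a description of letters and not a binding site. A run of at least 7 pyrimidines within 10 bases of the start was counted, the signature of messages whose translation responds to growth signals. It was found in 13 of the 29 ribosomal genes (44.8%). The share was 15.3% of the top 300 genes with a sequence and 14.2% of protein-coding genes with a sequence. The letters TATAAA occurred in 13.8% of the ribosomal set, 14.9% of the top 300 and 14.8% of protein-coding genes, which are close to each other. In the lowest 300 genes with a sequence the share was 24.0%.

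The edge of the top 300 was not a step. The last genes inside were Plcb1 at a mean of 12.21, Romo1 at 12.21, Slc32a1 at 12.20, Srp14 at 12.20 and 1110004F10Rik at 12.20. The first outside were Atp5j, Skp1, Pea15a, Krtap5-1 and Cxxc1, all at 12.19. At the other end, Cts7, a placental cathepsin, was last with 5.32, 5.31 and 5.30. Above it came Tex21, Adamts1, Plscr2, Rc3h2, Acsm3, Prl7d1, Il5ra, Fcgrt and 9130016M20Rik, with means from 5.43 to 5.53. Of these 10 genes, 6 were read by r-type probe sets.

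Genes of differentiating and mature granule neurons stood high. Of 19 measured genes of that list, 8 were in the top 10% and 1 in the lowest 25%, and the median percentile was 80.6 ± 0.97 (SD, n = 3). Neurod1, a transcription factor of differentiating granule neurons, read 12.31, 12.30 and 12.45 and stood at percentile 97.1 ± 0.48. Cbln1, the secreted organiser of parallel fiber synapses, read 12.98, 13.26 and 13.11. Gabra6, the GABA receptor subunit of mature granule neurons, read 11.90, 12.54 and 12.69, so that wild type 1 was lowest by a clear margin. En2, a patterning factor of the cerebellum, read 12.40, 12.51 and 12.60. The lowest member was Meis1, at percentile 22.8.

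Genes of granule cell progenitors and targets of Sonic hedgehog stood lower, with a median percentile of 37.7 ± 1.4 over 11 measured genes and none in the top 10%. In whole tissue, fewer cells of a type, less RNA per cell and weaker probe binding cannot be told apart. Atoh1, the factor that defines these progenitors, read 8.79, 8.73 and 8.78 and stood at percentile 37.9. Gli1, a transcriptional target of the pathway, read 8.44, 8.47 and 8.40, and Ptch1, its receptor and also a target, read 10.10, 10.15 and 10.44. Mycn, which drives progenitor division, read 9.69, 9.52 and 9.23, with wild type 1 highest and wild type 3 lowest. Its other probe set was near the bottom of all probe sets, at percentile 0.203.

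Genes of cell division took a middle position. Their median percentile was 64.4 ± 3.2 over 27 genes, 3 in the top 10% and 3 in the lowest 25%. Pcna, the sliding clamp of DNA polymerase, read 11.42, 11.30 and 11.20. Cdk1, the kinase that starts mitosis, read 10.42, 10.34 and 10.05, and Top2a, the topoisomerase of dividing cells, read 8.89, 8.68 and 8.62. In all of these wild type 1 was highest. Mki67, the common marker of proliferation, stood at percentile 45.7 with 9.20, 9.05 and 9.14. The top member, Stmn1 at percentile 99.6, also acts on microtubules in growing neurons and so belongs to the growth list as well.

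Purkinje cell genes formed a high group and a broad remainder. Of 22 measured genes, 8 were in the top 10% and 1 in the lowest 25%, and the median percentile was 60.8 ± 0.80. Pcp2, a G protein modulator of Purkinje cells, had a mean of 13.11 ± 0.097 (SD, n = 3), with 13.18 and 13.13 on wild type 2 and 3. Calb1, their calcium buffer calbindin, read 12.03, 12.27 and 12.25, and Car8, which binds the IP3 receptor, read 11.99, 12.20 and 12.22. All were lowest in wild type 1. Pcp4, another Purkinje cell protein, read 6.62, 6.47 and 6.77 and lay at percentile 6.68, the lowest of the list.

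Inhibitory neuron genes were likewise split. Slc32a1, the vesicular transporter for GABA and glycine, read 12.06, 12.28 and 12.27, and Gad1, a GABA-synthesising enzyme, read 11.31, 11.50 and 11.49. Gad2, the other GABA-synthesising enzyme, read 6.75, 6.92 and 6.68 and stood at percentile 8.32. The median percentile of the 12 measured genes was 63.8, with 4 in the top 10% and 3 in the lowest 25%. The small list for unipolar brush cells and deep nuclei had a median percentile of 20.4 over 5 genes, although Calb2, calretinin, read 10.45, 11.05 and 10.74.

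**Figure D3:**
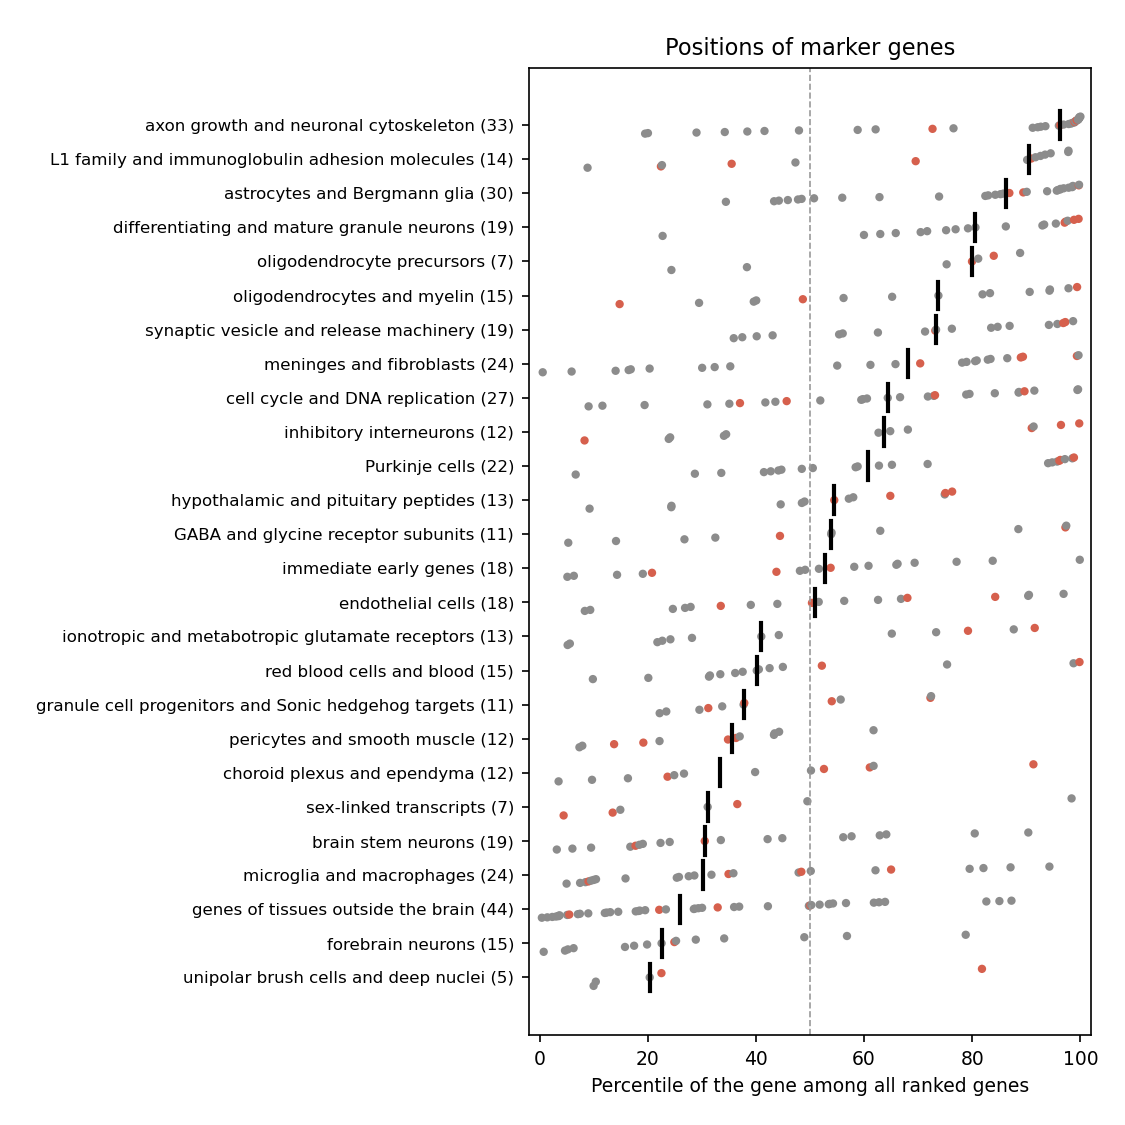
Percentile of each measured marker gene among the 8251 ranked genes (x axis), by list (y axis, number of measured genes in brackets). Red points are the defining markers, grey points the others, the black bar is the list median and the dashed line the median of all genes. Growth and adhesion lists lie highest, at medians of 96.3 and 90.5. The lowest median, 20.4, belongs to a cerebellar list of 5 genes, unipolar brush cells and deep nuclei. The lists for forebrain neurons and for tissues outside the brain lie at 22.6 and 25.9.

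Axon growth and neuronal cytoskeleton genes had the highest median of all 26 lists, percentile 96.3 ± 0.26. Of 33 measured genes, 22 were in the top 10% of all genes. Gap43, the growth cone phosphoprotein, read 12.17, 12.17 and 12.21. Tubb3, the neuronal beta tubulin, read 13.18, 13.25 and 13.17, and Stmn2, a microtubule regulator of growth cones, read 13.30, 13.45 and 13.50. The lowest member was Map1b, a microtubule-associated protein of growing axons, at percentile 19.5.

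L1 itself stood in the lower middle of the order. L1cam read 8.79, 8.48 and 8.73, at percentile 35.5 ± 3.2, and its close relative Chl1 read 7.89, 7.84 and 8.02, at percentile 22.4 ± 1.3. Nrcam, another member of the L1 family, had a mean of 10.10 ± 0.17 (SD, n = 3), highest in wild type 3 at 10.30, and Ncam1, a related adhesion molecule, read 11.40, 11.53 and 11.33. The list of 14 adhesion and related genes placed 8 in the top 10%, among them the ankyrin Ank3 but not L1cam, Chl1 or Nrcam. Its median percentile was 90.5. That median was 72.3 when probe sets with a suffix letter were left out and 61.4 when each gene was represented by its lowest probe set.

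Genes of transmitter release stood above the middle, with a median percentile of 73.3 over 19 genes. Snap25, a SNARE protein of the plasma membrane, read 12.04, 12.45 and 12.43, and Vamp2, its partner on the vesicle, read 12.35, 12.41 and 12.35. Syt1, the calcium sensor of release, read 9.87, 10.06 and 10.90, with wild type 3 far above the others. Glutamate receptors had a median percentile of 41.0 over 13 genes, led by the AMPA receptor subunit Gria2 at 11.38, 11.60 and 11.52. GABA and glycine receptor subunits had a median percentile of 53.9 over 11 genes. Immediate early genes lay at 52.7 over 18 genes, and their top member was Jund at 14.47, 14.47 and 14.46. Fos, the usual marker of recent activity, read 7.60, 7.42 and 8.46, at percentile 20.8 ± 8.9.

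Astrocyte and Bergmann glia genes stood high, with a median percentile of 86.3 ± 0.59 over 30 genes, 13 in the top 10% and none in the lowest 25%. Aqp4, the water channel of astrocyte endfeet, read 11.16, 11.43 and 11.28, and Gfap, the astrocyte intermediate filament, read 11.34, 10.99 and 10.89. The list's lowest member was Vim, the filament of immature glia, at percentile 34.4.

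Oligodendrocyte and myelin genes covered a wide span, with a median percentile of 73.7 ± 5.4 over 15 genes. Mbp, the basic protein of compact myelin, read 13.35, 13.54 and 13.69 and stood at percentile 99.4. Mog, found on the outer myelin surface of mature oligodendrocytes, read 9.01, 9.44 and 9.33, and Cnp, an early myelin enzyme, read 7.38, 7.32 and 7.45 at percentile 14.8. For Mbp and Mog wild type 1 was the lowest array. Oligodendrocyte precursor genes had a median percentile of 80.0 over 7 genes, with Pdgfra, their growth factor receptor, at 10.94, 10.90 and 10.81. This median rested on the choice of probe set: it was 46.4 with the mean of each gene's probe sets and 48.4 with the lowest.

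Microglia and macrophage genes had a median percentile of 30.2 ± 2.1 over 24 genes, with 1 in the top 10% and 8 in the lowest 25%. Cx3cr1, the fractalkine receptor of microglia, read 9.98, 9.93 and 9.87. C1qa, a complement subunit, read 9.35, 9.29 and 9.10, and Aif1, the protein stained as Iba1, read 6.82, 6.85 and 6.90. The only member in the top 10% was Csf3r, a receptor of granulocytes, at percentile 94.3.

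Vessel, blood and surface tissue genes were also read. Endothelial genes had a median percentile of 51.0 over 18 genes, with the tight junction protein Cldn5 at 10.78, 11.07 and 10.84, and pericyte and smooth muscle genes lay at 35.6 over 12. Blood stood at 40.2 over 15 genes, but the adult globins Hba-a1 and Hbb-b2 were near the top. Hba-a1 read 14.48, 14.32 and 14.36, and Hbb-b2 read 13.16, 12.89 and 13.02, both highest in wild type 1. The embryonic globins Hba-x and Hbb-y lay at percentiles 33.4 and 36.2. Meningeal and fibroblast genes had a median percentile of 68.1 over 24 genes, which was 46.1 with the lowest probe set of each gene. Of these 24 genes, 2 were in the top 10% and 6 in the lowest 25%, down to percentile 0.58. The 2 high ones were Igf2 and Ptgds. Igf2, a growth factor of the leptomeninges, read 13.51, 13.50 and 13.43, and Ptgds, a prostaglandin synthase, read 14.12, 14.02 and 13.75.

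Genes of other brain regions and of other organs stand here for transcripts that a cerebellum should hold little of. The list for tissues outside the brain had a median percentile of 25.9 ± 1.4 over 44 genes, with none in the top 10% and 22 in the lowest 25%. Alb, the liver albumin, read 7.91, 7.87 and 7.92, and Prm1, the sperm protamine, read 6.55, 6.45 and 6.49. Ckm, the muscle creatine kinase, read 9.31, 9.38 and 9.27, near the middle of the order, and the epithelial keratin Krt4 reached percentile 87.2. Of the other 25 lists, 23 had a higher median than this one. Those below it were the forebrain list and a cerebellar one, unipolar brush cells and deep nuclei, at 20.4. Forebrain genes lay at percentile 22.6 over 15 genes, brain stem genes at 30.5 over 19, and hypothalamic and pituitary peptides at 54.5 over 13. Pomc, a pituitary hormone precursor, read 10.45, 10.41 and 10.43 and Oxt, oxytocin, 10.42, 10.31 and 10.37. Both lay above Ptch1 and Cx3cr1, which are known markers of cells of this tissue.

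Where a gene had several probe sets, they often disagreed. For the 2073 such genes the highest and lowest probe sets lay a median of 28.5 percentile points apart, with quartiles of 13.3 and 50.6. The gap was over 50 points in 526 genes (25.4%) and under 10 points in 397 (19.2%). Among the 135 genes of the top 300 with several probe sets, the median gap was 43.1 points, and 62 had a probe set below the median of all. Choosing the highest probe set favours such pairs by construction. The widest gaps, from 94.9 to 99.4 points, belonged to Snrpb, Naca, Ccni, Sprr1b, Ptprr, Dad1, Chgb, Psmb4, Mapre1 and Mgst3. Ptprr, a phosphatase of Purkinje cells, had probe sets at means of 12.37 and 5.76. Naca, a chaperone of nascent chains, had probe sets at 12.70 and 5.44. Apoe, Gnas and Pvalb, all in the first 30, had further probe sets as low as percentiles 13.5, 16.4 and 62.1.

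**Figure D4:**
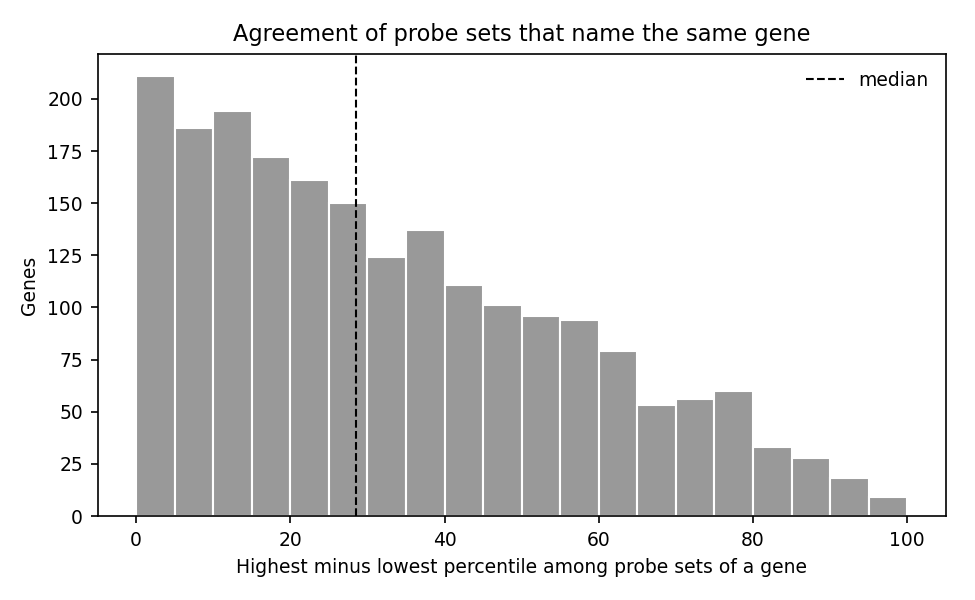
Number of genes (y axis) by the distance in percentile points between the highest and the lowest probe set of the gene (x axis), for the 2073 genes with several probe sets. The dashed line marks the median of 28.5 points, and 526 genes lie beyond 50 points.

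The 3 arrays were close to each other for nearly all genes. The median SD was 0.074 on the log2 scale and the 90th percentile of SDs was 0.15. Of the 300 leading genes on each array, any pair shared 277 to 280. The range over the arrays exceeded 1 in 6 genes. These were Ttr, Acta1, Mt2, Arhgap5, Fos and Syt1. The count was 2 without wild type 1, 2 without wild type 3 and 4 without wild type 2. Ttr, the thyroid hormone carrier made by the choroid plexus, read 9.71, 12.55 and 12.13, with wild type 1 far below the others and percentiles of 59.6, 97.6 and 96.1 on the single arrays. The choroid plexus and ependyma list had a median percentile of 33.3 over 12 genes, of which 6 were lowest in wild type 1 (Ttr, Kl, Calml4, Slc4a5, Col8a1 and Car12), against 28.6% of all genes. Kl, also made in the choroid plexus, read 7.60, 8.14 and 8.26, and Calml4 read 8.96, 9.63 and 9.40. Of the other defining markers, Folr1 read 9.87, 9.73 and 9.72 and Aqp1 read 9.50, 9.31 and 9.44, both highest in wild type 1. How much choroid plexus stayed with each cerebellum was not tested. Mt2, a metallothionein that responds to metals and glucocorticoids, read 11.08, 12.06 and 12.23, again lowest in wild type 1. Acta1, skeletal actin, read 7.93, 9.11 and 7.98, high in wild type 2 alone.

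Of the 66 genes with a range over 0.5, wild type 3 was the farthest array in 31, above the others in 30 of these. Wild type 1 was the farthest in 29, below the others in 26, and wild type 2 in 6. Over all 8251 genes the farthest array was wild type 1 in 33.8%, wild type 2 in 38.0% and wild type 3 in 28.3%. The genes high in wild type 3 included Ryr2, an intracellular calcium channel, at 9.13, 9.20 and 9.94, and Pclo, a scaffold of the presynaptic active zone, at 9.55, 9.63 and 10.33. Cltc, the clathrin heavy chain, followed them at 11.69, 11.67 and 12.29. Among genes above the median level, the other large SDs belonged to Btbd3, Erdr1, Gabra6, Ptov1, Actb, Eif4g3, Nr1d2, Aldoc and Spred2. Actb, beta actin, read 10.87, 10.38 and 10.08, so a gene often used as a reference was among the 15 most variable. These values come from the higher of its 2 probe sets, whose identifier carries the letter s.

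Smaller deviations ran in step within gene groups. Of the 27 cell cycle genes, 25 were highest in wild type 1, against 40.4% of all genes, and the median deviation from the mean of the 3 arrays was 0.12, -0.03 and -0.11. The exceptions were Bub1 and Ran. Blood genes were highest there in 12 of 15 and microglia genes in 17 of 24. The reverse held for energy metabolism and for several neural and glial lists, Purkinje cells among them. Respiratory chain genes were lowest in wild type 1 in 55 of 76, against 28.6% of all genes, with median deviations of -0.11, 0.12 and 0.00. Ion pump genes were lowest there in 17 of 22, glycolysis genes in 10 of 14 and Purkinje cell genes in 15 of 22. Wild type 2 deviated as well, with 33.0% of all genes highest there. Respiratory chain genes were highest in wild type 2 in 55 of 76 (72.4%) and glycolysis genes in 12 of 14. Proteasome and ubiquitin genes were so in 53 of 75, and cell cycle genes in 1 of 27. Ribosomal protein genes were highest in wild type 2 in 21 of 36. They were lowest in wild type 3 in 21 of 36, against 33.2% of all genes. Lists that a cerebellum should hold little of also exceeded the 40.4% of all genes that were highest in wild type 1. Forebrain genes were highest in wild type 1 in 11 of 15 (73.3%), hypothalamic and pituitary genes in 9 of 13 (69.2%), brain stem genes in 12 of 19 (63.2%) and genes of tissues outside the brain in 24 of 44 (54.5%). The share of microglia genes was 70.8%. Control probe sets for the 3' and 5' ends of a transcript moved with this array in part. The 3' end exceeded the 5' end by 0.85, 0.51 and 0.47 for Pcx, by 0.12, 0.10 and -0.05 for Gapdh, and by 0.93, 0.87 and 0.82 for Actb, each highest in wild type 1. For Tfrc the difference was 1.24, 1.14 and 1.33, highest in wild type 3. The part of these signs of RNA quality in the shifts was not tested.

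**Figure D5:**
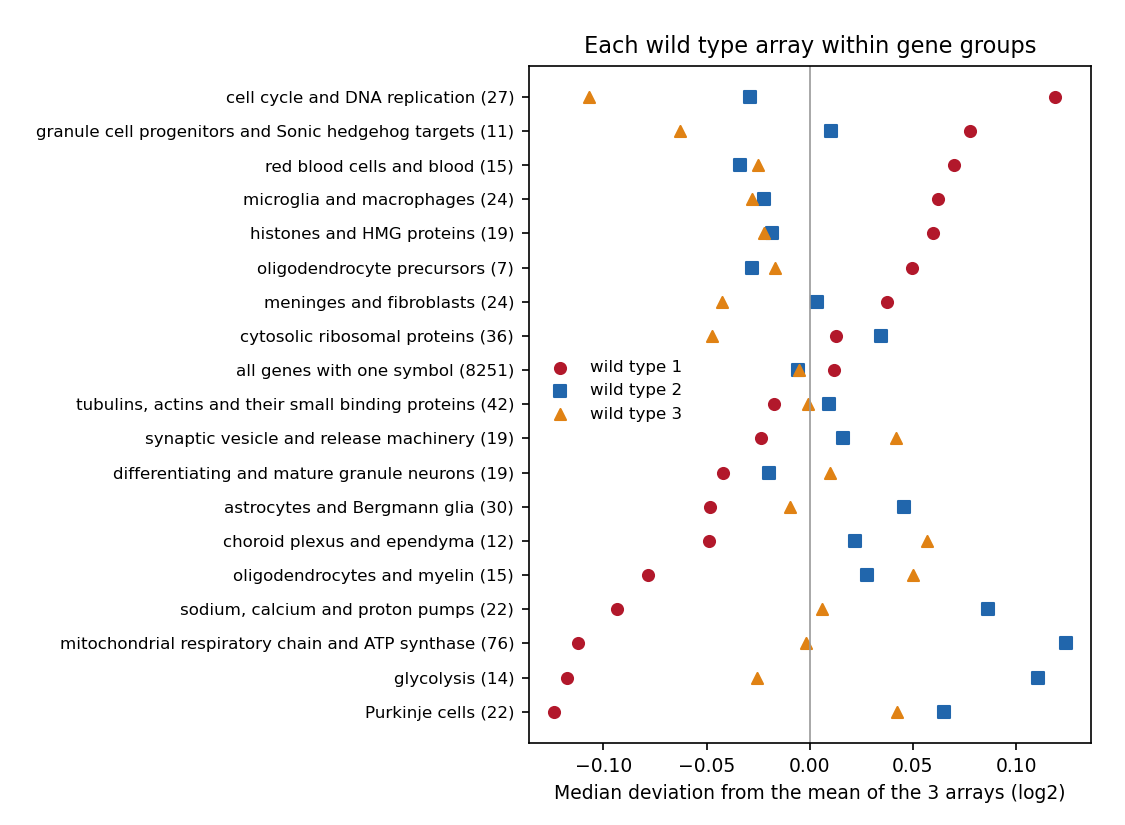
Median deviation of each wild type array from the mean of the 3, in log2 units (x axis). Rows are chosen gene groups (y axis, number of genes in brackets). The lists for other brain regions and other organs are not drawn. In wild type 1 their medians were 0.075 for forebrain, 0.046 for brain stem, 0.045 for hypothalamus and pituitary and 0.044 for other tissues. Wild type 1 lies at 0.12 for cell cycle genes and at -0.12 for Purkinje cell genes, while the median over all genes is near 0 on every array.

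Transcripts of the sex chromosomes did not settle the sex of the mice. Xist, made from the inactive X, read 6.36, 6.40 and 6.41, and the Y-linked Eif2s3y read 8.59, 8.84 and 8.70. Kdm5d, also Y-linked, read 7.29, 7.22 and 7.35. No array stood apart from the others in any of them.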

How the data were processed

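RNA from 3 wild type cerebella was read on Affymetrix U74Av2 arrays. The authors deposited 1 value per probe set and array on the log2 scale, made with RMA per the submitters' processing notes (version not given in the sources used here). The 3 wild type columns were used and the knockout columns left out. Gene names came from the platform annotation, and the gene identifiers of 10817 of the probe sets with 1 symbol were found in RefSeq, with 0 symbols changed. Means, ranks, percentiles and SDs were computed with Python 3.11.15, pandas 2.3.3 and numpy 2.4.6, checked on simulated data. No test was made, since only 1 group is described. Genes were named from groups set by rule: the 30 highest, 10 lowest, 5 on either side of the top 300 edge, defining, highest and lowest list members, 3 leading family members, 15 most variable above the median, and 10 with the widest probe set gap. Of the list and family members that this rule covers, not all are named in the text. Other named genes were chosen after their values were seen. The members and the 26 gene lists (599 symbols, 452 measured) were chosen with earlier results of these data known. Protein length was not analysed here. Alternatives changed the probe set choice, normalization and arrays used.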

Additional observations from a re-analysis of the deposited data

How the results depend on the processing

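Of the top 300 genes, 186 stayed when each gene was represented by its lowest probe set, 202 with the mean of its probe sets and 205 with suffix probe sets left out. By contrast 294 stayed with the median of the arrays and 292 to 296 when 1 array was left out. After quantile normalization 299 stayed, but RMA as a rule already includes that step, so repeating it could change little. The choice of probe set moved membership most among the alternatives run. The median SD between arrays was 0.0545 to 0.0672 with 1 array left out, over 2 values in place of 3. The count of genes with a range above 1 was then 2 to 4 in place of 6. The count of ribosomal genes in the top 300 was 11 to 17 and that of respiratory chain genes 20 to 28 over all alternatives. Added after seeing the data, the count of cell cycle genes highest in wild type 1 was 22 to 26 and that of Purkinje genes lowest there 14 to 15. Respiratory chain genes lowest there numbered 42 to 58. The 42 was out of 63 genes, with suffix probe sets left out, in place of 76. That setting also left 25 cell cycle genes in place of 27 and 21 Purkinje genes in place of 22. List medians moved by more than their SD over arrays in 21 of 26 lists with the mean and 22 with the lowest probe set. They did so in 0 with the repeated quantile normalization, which could change little. No paired analysis was possible because only 1 group is described. Signal over background is not known for these values, so genes near the lower end cannot be called present or absent.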

Other observations

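Genes of the cornified skin envelope appeared among the leading signals. The prefix Sprr, for the small proline-rich proteins that toughen the outer epidermis, had 13 measured genes, of which 4 were in the top 300, with a median percentile of 70.0. Sprr1b read 13.98, 13.80 and 13.88 on wild type 1, 2 and 3, and its other probe set lay at percentile 2.46. Sprr2g read 12.71, 12.64 and 12.72, Sprr2e read 12.53, 12.45 and 12.55, and Sprr2j-ps read 12.36, 12.37 and 12.37. These were read by probe sets with the suffix r or f, whose probes can match several transcripts. Krtap genes, which encode keratin-associated proteins of hair, had 0 of 11 measured genes in the top 300 and a median percentile of 30.6, with Krtap5-1 the highest at 12.25, 12.16 and 12.16. These genes were singled out after their values were seen, and whether the signals come from these transcripts was not tested.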
